A study of Drosophila melanogaster with 6 samples.

Results

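The features described here are the 43 that appeared, with values, in both of the deposited tables of Drosophila S2 cells after RNAi: 41 genes and 2 telomeric retrotransposons. They were chosen by the tables themselves, each of which held only features with a deposited adjusted p below 0.05 against the same GFP control, so their change against GFP is the rule and not a finding. The tables held 582 different features in all, 535 for HP1a RNAi and 90 for dKDM4A RNAi. The shared features made up 8.04% of the HP1a table and 47.8% of the dKDM4A table. The question put to them is where HP1a RNAi and dKDM4A RNAi differ in size.

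Polyadenylated RNA was sequenced from 6 libraries of S2 cells, an embryonic Drosophila line with haemocyte-like properties, grown at 25 degrees in Schneider medium with 10% serum. In 2 libraries the cells had received double-stranded RNA against HP1a for 5 days, in 2 against dKDM4A and in 2 against GFP, which served as the control. All 3 groups received double-stranded RNA with the transfection reagent DOTAP. Nothing in the labels states whether libraries within a group came from separate cultures, so any p-value measures only the spread between these libraries.

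HP1a is a chromatin protein that binds methylated histone H3 and is concentrated in heterochromatin, the compact and repeat-rich part of the genome. dKDM4A, encoded by Kdm4A, is a demethylase of histone H3, and fly HP1a is known to bind it and to stimulate its activity. Loss of HP1a is known to alter the transcription of repeats and of genes inside and outside heterochromatin.

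The targeted genes check the labels, and neither is among the 43. The gene that encodes HP1a had normalized counts of 12834 and 15705 in HP1a RNAi, against 21963 and 25507 in GFP RNAi, so 60.1% of the control level was left. Kdm4A had 2141 and 2675 in the libraries labelled dKDM4A RNAi, against 842 and 843 in GFP RNAi, which is 2.86-fold higher and goes against the label. These are therefore called the dKDM4A-labelled libraries. All libraries are labelled as S2 cells, and of 14 haemocyte markers, Pxn alone was in both tables. Pxn, drpr and lz were higher in HP1a RNAi, and Pxn and NimC1 were higher in the dKDM4A-labelled libraries. Counts of lz were low and its replicates lay apart, with 34.7 and 84.7 in HP1a RNAi, against 15.9 and 12.5 in GFP RNAi. No neuronal or fat body marker was listed in either table, bt of the muscle markers was lower in HP1a RNAi, and the germline markers vas and osk were higher there. Their part in the results was not tested.

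The shared features were well covered. The fewest reads were those of CG5697, with 187 and 125 reads in HP1a RNAi, 168 and 130 in the dKDM4A-labelled libraries, and 78 and 55 in GFP RNAi. The median shared feature held between 1938 and 4171 reads per library. The total depth of each library is unknown, since the tables hold listed features alone. The counts were normalized separately in each table, so the same GFP library has a 1.18-fold higher value in the HP1a table, and each treatment is set only against the GFP values of its own table. Positions equalled the BDGP6 (dm6) annotation for all 41 genes.

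Of the 43 features, 35 were higher and 8 lower, the same ones in both treatments. Among all features tested against GFP, the HP1a table listed 6.46%, with 4.18% higher and 2.28% lower. The dKDM4A table listed 1.19%, with 0.876% higher and 0.319% lower. Nothing is read from the members' direction, because the rule and the shared GFP libraries bear on it. A change below is the mean log2(normalized count + 1) of a treatment minus the mean of the 2 GFP libraries of that table. The higher features had a median change of 0.64 in HP1a RNAi (range 0.23 to 1.502) and of 0.53 in the dKDM4A-labelled libraries (range 0.23 to 1.25). The lower features had a median change of -0.56 in HP1a RNAi (range -1.47 to -0.25) and of -0.44 in the dKDM4A-labelled libraries (range -0.59 to -0.31). In all, 29 features lay further from GFP in HP1a RNAi and 14 lay further in the dKDM4A-labelled libraries.

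**Figure D1:**
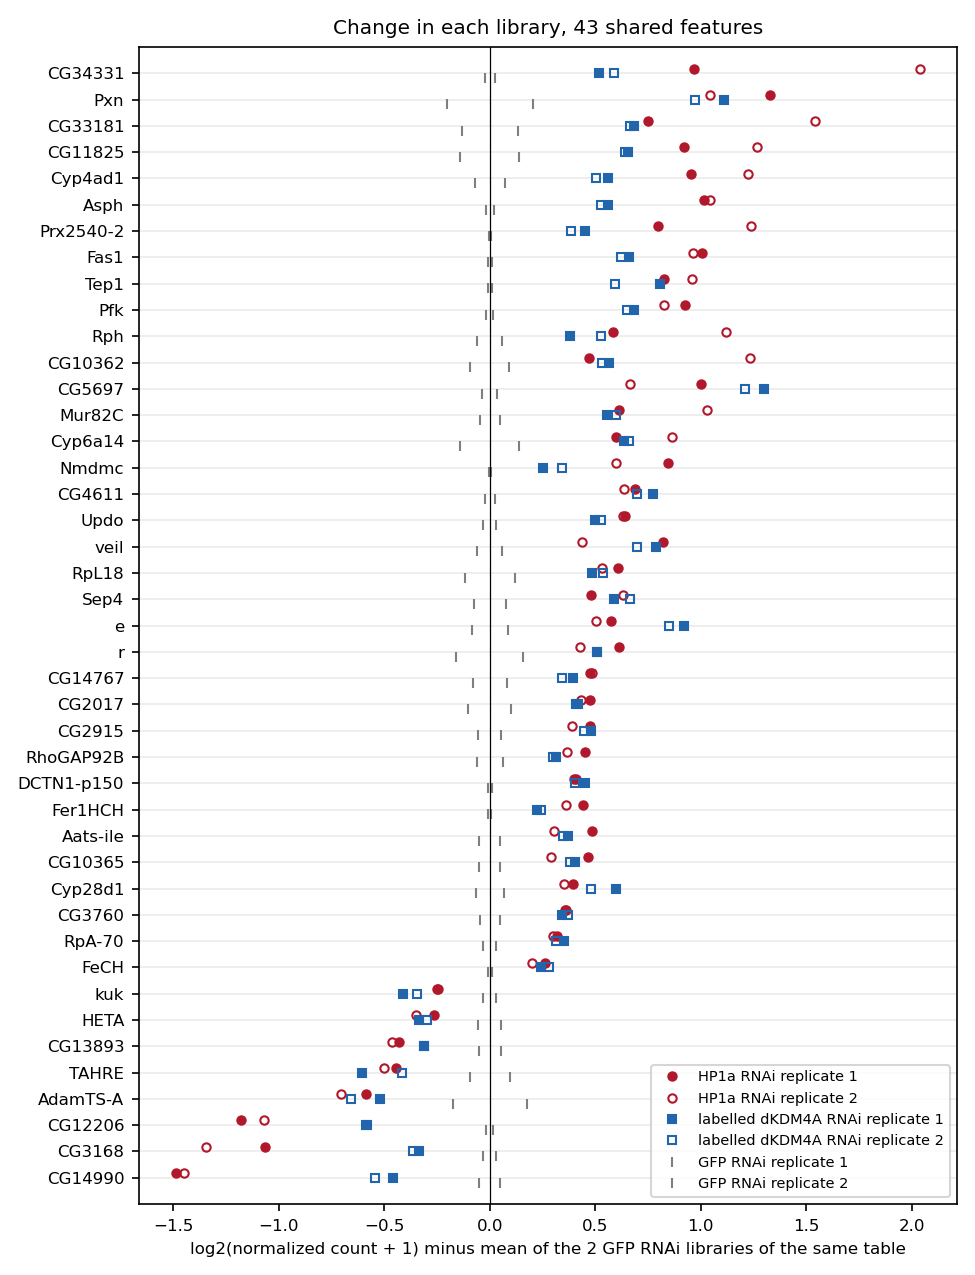
Each row is a shared feature, and the x axis is the log2 change of a single library from the mean of the GFP RNAi libraries of its table. Circles are HP1a RNAi, squares the dKDM4A-labelled libraries and vertical ticks GFP RNAi. The 35 higher features lie right of 0 and the 8 lower ones left of it, and the circles of CG14990, CG3168 and CG12206 lie further left than the squares.

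The 2 treatments were compared directly by limma over all 43 features, which are all those with deposited values for both, with Benjamini-Hochberg adjustment. Features that were measured but not listed have no values here. For each feature limma takes part of the spread from the other shared features (1.79 prior degrees of freedom beside 2 residual). The features were selected by tests on these same libraries, which bears on that spread and so on each p-value. In this fit 6 features differed, or 14.0% of those tested, 2 with a positive difference (4.65%) and 4 with a negative one (9.30%). CG14990, CG3168 and CG12206 were lower in HP1a RNAi than in the dKDM4A-labelled libraries, and so was e, which was higher than GFP in both. Asph and Fas1 were higher in HP1a RNAi than in the dKDM4A-labelled libraries. At an unadjusted p below 0.05 there were 13 features. Because a feature had to pass against GFP in both treatments to be present, features that changed in only 1 of them cannot appear here.

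CG14990 had the largest difference of the 6. It lies on the plus strand of chromosome 3L, from 4093207 to 4094344, and its exons overlap those of CG14995 on the opposite strand. It had 828 and 848 normalized counts in HP1a RNAi, against 2242 and 2400 in GFP RNAi, or 36.1% of the control. It had 1430 and 1349 in the dKDM4A-labelled libraries, against 1902 and 2034 in GFP RNAi, or 70.6%. Relative to GFP the groups did not overlap, and HP1a RNAi lay furthest below it. Such a lack of overlap is common here: it held between the treatments in 60.5% of the 43 features, and against GFP in all 43. The log2 difference was -0.97 (SE 0.058, 95% interval -1.13 to -0.80, limma adjusted p = 0.00459).

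CG3168, on the minus strand of the X chromosome from 6720004 to 6739986, stood in the list of 10 solute carriers, of which it was the 1 shared gene. Its normalized counts were 2200 and 1817 in HP1a RNAi, against 4710 and 4513 in GFP RNAi. In the dKDM4A-labelled libraries they were 3097 and 3034, against 3996 and 3824 in GFP RNAi. Relative to GFP, HP1a RNAi again lay lowest, although its own 2 libraries lay further apart than those of the other groups. The log2 difference was -0.85 (SE 0.11, 95% interval -1.17 to -0.54, limma adjusted p = 0.0206).

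CG12206 also lies on the minus strand of the X chromosome, from 3465737 to 3474524. HP1a RNAi gave 649 and 701 normalized counts, against 1490 and 1456 in GFP RNAi. The dKDM4A-labelled libraries gave 830 and 834, against 1264 and 1234 in GFP RNAi. In HP1a RNAi 45.8% of the control level was left and in the dKDM4A-labelled libraries 66.6%, with no overlap between groups. The log2 difference was -0.54 (SE 0.062, 95% interval -0.72 to -0.37, limma adjusted p = 0.017).

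The gene e, for ebony, encodes an enzyme that joins beta-alanine to dopamine and so sets cuticle colour; it lies on chromosome 3R from 21229839 to 21237177. It had 2245 and 2135 normalized counts in HP1a RNAi, against 1420 and 1599 in GFP RNAi, a 1.45-fold increase. It had 2416 and 2299 in the dKDM4A-labelled libraries, against 1205 and 1355 in GFP RNAi, a 1.84-fold increase. The groups did not overlap, and the dKDM4A-labelled libraries lay furthest above GFP. The log2 difference was -0.34 (SE 0.06, 95% interval -0.51 to -0.17, limma adjusted p = 0.0385). Of 10 pigmentation genes in the list, e alone was shared, and yellow-h was listed, as higher, in the dKDM4A table. A gene listed in 1 table has no value in the other here, so its change there is unknown.

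Asph, on chromosome 2R from 16110331 to 16116996, encodes an aspartyl beta-hydroxylase. Its normalized counts were 657 and 669 in HP1a RNAi, against 320 and 329 in GFP RNAi. They were 406 and 397 in the dKDM4A-labelled libraries, against 271 and 279 in GFP RNAi. Replicates lay close together in every group, and HP1a RNAi was furthest above GFP. The log2 difference was 0.48 (SE 0.05, 95% interval 0.34 to 0.62, limma adjusted p = 0.017).

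Fas1, which encodes the cell adhesion molecule fasciclin 1, lies on chromosome 3R from 16625238 to 16639771. It had 8437 and 8190 normalized counts in HP1a RNAi, against 4170 and 4230 in GFP RNAi, or 1.98-fold. It had 5632 and 5474 in the dKDM4A-labelled libraries, against 3538 and 3584 in GFP RNAi, or 1.56-fold. Each group kept to itself, with HP1a RNAi furthest above GFP. The log2 difference was 0.34 (SE 0.052, 95% interval 0.20 to 0.49, limma adjusted p = 0.0279). Of 14 adhesion and cytoskeleton genes in the list, Fas1 was the 1 shared gene, while Nrg and betaTub60D were listed as higher and tutl as lower in the HP1a table.

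**Figure D2:**
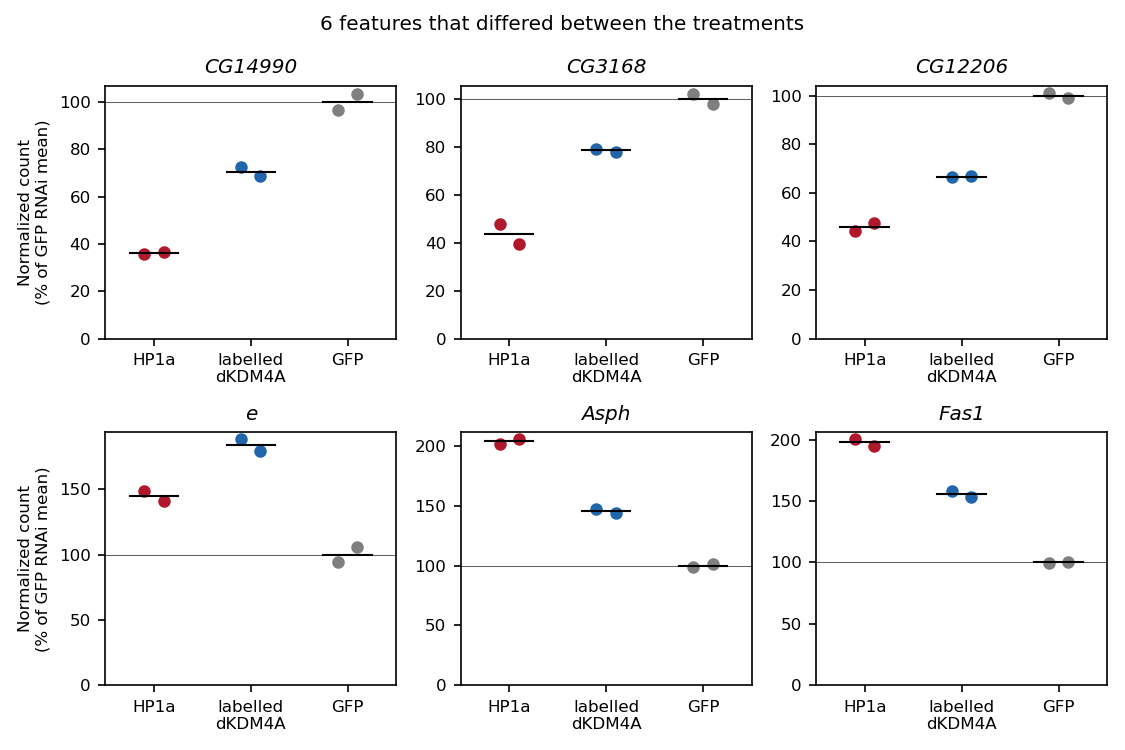
The y axis is the normalized count as a percentage of the mean of the GFP RNAi libraries of the same table, starting at 0; points are single libraries and bars are means of 2. CG14990, CG3168 and CG12206 are lowest in HP1a RNAi, e is highest in the dKDM4A-labelled libraries, and Asph and Fas1 are highest in HP1a RNAi.

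With the replicate number as a term in the model, limma called 0 of the 43 features, and the lowest adjusted p was 0.0697. The 6 calls are thus those of the fit without that block. The number of calls also depended on which library was left out. Without a dKDM4A-labelled library, the spread is estimated from the HP1a RNAi libraries alone. Without an HP1a RNAi library, it is estimated from the dKDM4A-labelled libraries alone, which lay closer together (median 0.041, against 0.099 in HP1a RNAi). In each case the lone library is assumed to vary like the pair, so these calls are not compared. With a library left out, the difference ranged from -1.01 to -0.92 for CG14990 and from -0.99 to -0.72 for CG3168. The sign of the 6 called differences held with any single library left out. This was fixed in advance and is no support. The libraries of the 2 treatments did not overlap in these features, and the GFP libraries nearly cancel in the difference. With 2 libraries on each side, the smallest two-sided p of an exact permutation test is 0.333.

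**Figure D3:**
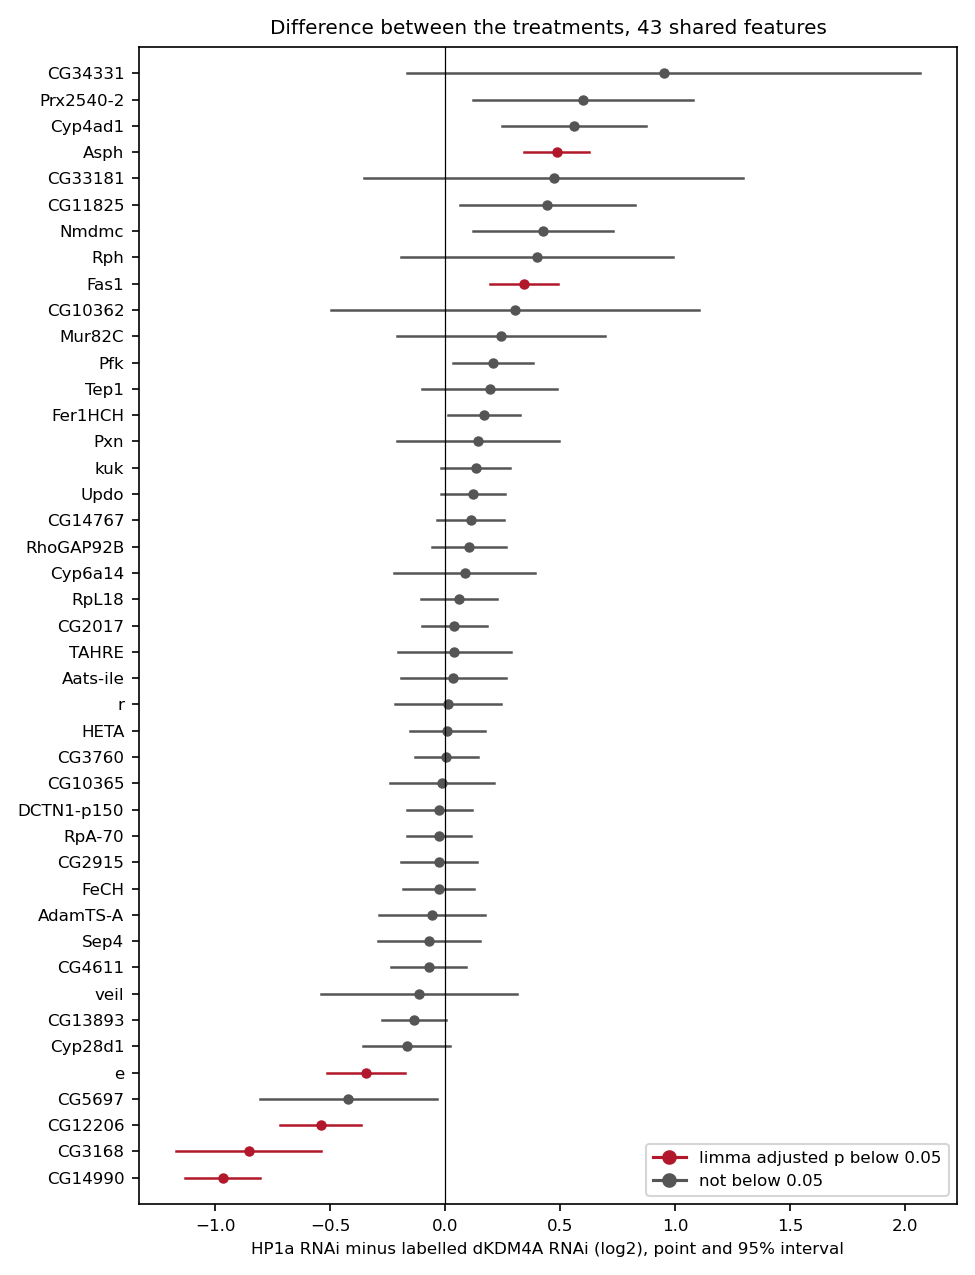
Points are HP1a RNAi minus the dKDM4A-labelled libraries on the log2 scale for each of the 43 shared features, with the 95% interval of limma. The 6 features with an adjusted p below 0.05 have intervals away from 0, and CG34331 has the largest positive difference, 0.95, with the widest interval.

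For most shared features the difference did not pass. Separately, for 27 of the 43 the 95% interval of the difference lay within 0.5 log2 units on either side of 0. These 27 include the called gene Fas1, and Pfk and Fer1HCH, whose intervals also lay away from 0. The bound is about as large as the median changes against GFP, 0.54 in HP1a RNAi and 0.46 in the dKDM4A-labelled libraries. The count therefore does not show that the treatments are alike. Judged library by library, both HP1a libraries changed more positively than both libraries labelled dKDM4A RNAi in 18 features (41.9%), less positively in 8 (18.6%), and overlapped with them in 17. Features without overlap made up 60.5% of the 43. CG3760 had the smallest difference, 0.0039 (95% interval -0.13 to 0.14, limma adjusted p = 0.94). It had 6096 and 6125 normalized counts in HP1a RNAi, against 4918 and 4609 in GFP RNAi. It had 5119 and 5215 in the dKDM4A-labelled libraries, against 4172 and 3905 in GFP RNAi.

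The telomeric retrotransposons HETA and TAHRE, which maintain fly chromosome ends in place of telomerase, were lower in both treatments, with small differences between them. HETA had 4050 and 3824 normalized counts in HP1a RNAi, against 4686 and 5062 in GFP RNAi. It had 3277 and 3359 in the dKDM4A-labelled libraries, against 3975 and 4289 in GFP RNAi. Its difference between treatments was 0.0081 on the log2 scale (95% interval -0.15 to 0.17, limma adjusted p = 0.916). In both treatments the libraries of HETA and TAHRE lay below the GFP libraries of the same table. All 43 shared features were free of overlap with GFP in both treatments, as the rule favours. TAHRE had 825 and 792 in HP1a RNAi, against 1051 and 1197 in GFP RNAi. TAHRE had 624 and 713 in the dKDM4A-labelled libraries, against 891 and 1014 in GFP RNAi. Its difference was 0.04 (95% interval -0.21 to 0.29, limma adjusted p = 0.757). HETA and TAHRE were the only repeats of the dKDM4A table, while the HP1a table held 46. The sources used here do not state how reads with several matches were treated, and the 2 elements are related in sequence.

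The other lower features were AdamTS-A, CG13893 and kuk. AdamTS-A, which encodes a secreted metalloprotease of the extracellular matrix, had 805 and 741 normalized counts in HP1a RNAi, against 1363 and 1070 in GFP RNAi. It had 715 and 649 in the dKDM4A-labelled libraries, against 1156 and 907 in GFP RNAi. The GFP libraries of AdamTS-A lay further apart than those of either treatment, and the difference between treatments was -0.06 (95% interval -0.29 to 0.17). CG13893 was 1.36-fold lower in HP1a RNAi and 1.24-fold lower in the dKDM4A-labelled libraries. kuk encodes kugelkern, a protein of the nuclear envelope. It had 10337 and 10296 normalized counts in HP1a RNAi, against 11980 and 12499 in GFP RNAi. It had 7807 and 8160 in the dKDM4A-labelled libraries, against 10162 and 10591 in GFP RNAi. kuk was the only lower gene in which both HP1a libraries lay nearer to GFP than both of the others, and its difference of 0.13 did not pass (95% interval -0.02 to 0.28, limma adjusted p = 0.179).

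When each feature is ranked by the smaller of its 2 changes, Pxn came first. It encodes peroxidasin, a haem peroxidase of the extracellular matrix that haemocytes secrete. Its normalized counts were 406768 and 334266 in HP1a RNAi, against 186823 and 140994 in GFP RNAi. They were 297169 and 269658 in the dKDM4A-labelled libraries, against 158475 and 119469 in GFP RNAi. Replicate 2 was the lower library in every group. The difference between treatments was 0.14 (95% interval -0.21 to 0.50, limma adjusted p = 0.523). It was 0.0016 without HP1a RNAi replicate 1 and 0.28 without HP1a RNAi replicate 2, where limma called it (adjusted p = 0.00034, against up to 0.981 over the other settings). Of 17 extracellular matrix genes in the list, Pxn and AdamTS-A were in both tables, and Mmp1 was listed, as lower, in the dKDM4A table.

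Of the lists used, the haem and iron list held the largest number of shared genes, 3 of 10. All 3 were higher in both treatments, as were 35 of the 43 shared features. The lists were chosen with earlier results known, and such a ranking depends on their members. Updo encodes uroporphyrinogen decarboxylase and FeCH ferrochelatase, both enzymes of haem synthesis, and Fer1HCH encodes the ferritin heavy chain that stores iron. Updo had 4305 and 4273 normalized counts in HP1a RNAi, against 2822 and 2701 in GFP RNAi. Updo also had 3308 and 3379 in the dKDM4A-labelled libraries, against 2394 and 2289 in GFP RNAi. Replicates of Updo differed little, and its difference between treatments was 0.12 (95% interval -0.02 to 0.26, limma adjusted p = 0.179). Fer1HCH had 37655 and 35689 in HP1a RNAi, against 27598 and 27896 in GFP RNAi. It had 27464 and 27868 in the dKDM4A-labelled libraries, against 23410 and 23637 in GFP RNAi. Fer1HCH had a difference of 0.17 (95% interval 0.01 to 0.33, limma adjusted p = 0.138), and its exons overlap those of Fer2LCH on the opposite strand. FeCH had the smallest of the HP1a RNAi changes, 1.17-fold in HP1a RNAi and 1.197-fold in the dKDM4A-labelled libraries. A further gene of the list, Alas, was 0.50 higher on the log2 scale in the dKDM4A-labelled libraries and was not in the HP1a table.

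Cytochrome P450 genes encode haem-containing oxidases that act on foreign compounds, fatty acids and hormones. Cyp4ad1, Cyp6a14 and Cyp28d1 were shared and higher in both treatments, of 9 genes with a Cyp symbol in the HP1a table and 6 in the table of the dKDM4A-labelled libraries. Of these 3, Cyp6a14 alone was in the list used. All 9 Cyp genes of the HP1a table were higher there. Of the 6 in the other table, 5 were higher and Cyp4s3 was lower, with a change of -0.68. Cyp4ad1 had 611 and 736 normalized counts in HP1a RNAi, against 330 and 299.7 in GFP RNAi. It had 394 and 378 in the dKDM4A-labelled libraries, against 280.2 and 254 in GFP RNAi. The groups of Cyp4ad1 did not overlap, and its difference of 0.56 lay just outside the threshold (95% interval 0.25 to 0.87, limma adjusted p = 0.0508). Cyp6a14 differed by 0.08 (95% interval -0.22 to 0.39), and Cyp28d1 by -0.17 (95% interval -0.36 to 0.02). Cyp28d1 also had the weakest deposited adjusted p of the shared features in the HP1a table, 0.0447 in the authors' deposited table, and Prx2540-2 that in the other, 0.0448. Features just above the threshold were not analysed here.

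Prx2540-2, a peroxiredoxin gene, and CG11825 are neighbours on chromosome 2R, 652 bp apart with no coding gene between them. Both were higher in both treatments. Prx2540-2 had 830 and 1127 normalized counts in HP1a RNAi, against 479 and 475 in GFP RNAi. It had 553 and 529 in the dKDM4A-labelled libraries, against 406 and 403 in GFP RNAi. HP1a RNAi lay furthest above GFP, with replicate 2 above replicate 1, and the same held for CG11825. CG11825 had 808 and 1027 in HP1a RNAi, against 387 and 469.7 in GFP RNAi. CG11825 had 571 and 565 in the dKDM4A-labelled libraries, against 329 and 398 in GFP RNAi. The differences between treatments were 0.60 for Prx2540-2 (95% interval 0.12 to 1.08, limma adjusted p = 0.123) and 0.44 for CG11825 (95% interval 0.06 to 0.82, limma adjusted p = 0.125). On the other side of CG11825, 0.785 kb away, lies Prx2540-1, a close copy of Prx2540-2. It was 1.22 higher on the log2 scale in HP1a RNAi and was not in the other table. Reads of the 2 copies may have been shared in counting, so their values are uncertain.

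Enzymes of central metabolism were among the higher features. Pfk encodes phosphofructokinase, which commits sugar to glycolysis, and was the 1 shared gene of 13 in the glycolysis list. It had 3958 and 3695 normalized counts in HP1a RNAi, against 2058 and 2107 in GFP RNAi. It had 2840 and 2774 in the dKDM4A-labelled libraries, against 1745 and 1786 in GFP RNAi. Groups of Pfk did not overlap, and its difference of 0.21 did not pass (95% interval 0.04 to 0.38, limma adjusted p = 0.124). Nmdmc encodes a mitochondrial enzyme of folate metabolism. Nmdmc had 5092 and 4286 in HP1a RNAi, against 2845 and 2822 in GFP RNAi. In the dKDM4A-labelled libraries it had 2860 and 3046, against 2413 and 2391 in GFP RNAi. The difference of Nmdmc, 0.42, did not pass either (95% interval 0.12 to 0.73, limma adjusted p = 0.0992), and its exons overlap those of Mst85C on the opposite strand.

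Nor did the other metabolic genes pass. The gene r encodes a large enzyme that starts pyrimidine synthesis. It exceeded GFP RNAi 1.43-fold in HP1a RNAi and 1.41-fold in the dKDM4A-labelled libraries, with a difference of 0.01 (95% interval -0.22 to 0.24). veil, a 5'-nucleotidase gene, had 2151 and 1651 normalized counts in HP1a RNAi, against 1270 and 1169 in GFP RNAi. It had 1784 and 1673 in the dKDM4A-labelled libraries, against 1077 and 991 in GFP RNAi. The HP1a libraries of veil lay on either side of the other treatment once set against GFP, and the difference was -0.11 (95% interval -0.54 to 0.31). Of 14 genes in the purine and nucleotidase list, veil was the 1 shared and the 1 listed gene in both tables.

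RpL18, a ribosomal protein gene, exceeded GFP RNAi 1.48-fold in HP1a RNAi and 1.42-fold in the dKDM4A-labelled libraries. Of the 13 ribosomal protein genes in the list it was the 1 shared gene, and RpL10Ab, RpS15Ab and RpS25 were listed as higher in the HP1a table. Aats-ile, which encodes isoleucyl-tRNA synthetase, was 1.32-fold and RpA-70, which encodes a subunit of the single-stranded DNA binding complex RPA, 1.24-fold higher in HP1a RNAi. In the dKDM4A-labelled libraries, Aats-ile was 1.28-fold and RpA-70 1.26-fold higher. DCTN1-p150, a dynactin subunit that links dynein to its cargo, exceeded GFP RNAi 1.32-fold in HP1a RNAi and 1.35-fold in the dKDM4A-labelled libraries. The differences of these 4 genes ranged from -0.03 to 0.06 and none passed (limma adjusted p from 0.551 to 0.757). Per kb of merged exons, RpL18 had the highest normalized count of the shared genes in GFP RNAi, 65433, and Tep1 the lowest, 47.2.

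Tep1, which encodes a secreted thioester protein of humoral immunity, had 353 and 388 normalized counts in HP1a RNAi, against 200.2 and 198 in GFP RNAi. It had 296 and 255 in the dKDM4A-labelled libraries, against 169.9 and 168 in GFP RNAi. Its difference was 0.19 (95% interval -0.10 to 0.49, limma adjusted p = 0.288). Of 18 genes in the humoral immunity list, Tep1 was the 1 shared gene. Among the shared features CG5697 had the largest change in the dKDM4A-labelled libraries, with 157 and 148 normalized counts, against 61.9 and 65.0 in GFP RNAi. In HP1a RNAi it had 151 and 119, against 73.0 and 76.7 in GFP RNAi. Like e, CG5697 was higher in both treatments and less so in HP1a RNAi, but its difference of -0.42 did not pass (95% interval -0.81 to -0.04, limma adjusted p = 0.138). CG4611 exceeded GFP RNAi 1.58-fold in HP1a RNAi and 1.67-fold in the dKDM4A-labelled libraries.

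The replicates of HP1a RNAi disagreed for a small number of features, and these were mostly on the X chromosome. CG34331 had 938 normalized counts in HP1a RNAi replicate 1 and 1972 in replicate 2, against 472 and 488 in GFP RNAi. It had 582 and 612 in the dKDM4A-labelled libraries, against 400.0 and 413 in GFP RNAi. Relative to GFP both HP1a libraries of CG34331 lay above the rest, but its difference of 0.95, the largest of the 43 in the positive direction, did not pass (95% interval -0.17 to 2.06, limma adjusted p = 0.183). CG33181 had 567 and 981 in HP1a RNAi, against 307 and 369 in GFP RNAi. CG33181 had 459 and 453 in the dKDM4A-labelled libraries, against 260.3 and 313 in GFP RNAi. Its exons overlap those of otu on the opposite strand, and replicate 2 of HP1a RNAi was again the higher. CG10362, annotated as Pdzd8, had 465 and 792 in HP1a RNAi, against 315 and 358 in GFP RNAi. It had 423 and 412 in the dKDM4A-labelled libraries, against 267 and 304 in GFP RNAi. HP1a RNAi replicate 1 of CG10362 lay below both dKDM4A-labelled libraries once set against GFP, and replicate 2 above them. Rph, the rabphilin gene, had 1949 and 2831 in HP1a RNAi, against 1356 and 1249 in GFP RNAi. It had 1435 and 1589 in the dKDM4A-labelled libraries, against 1150.1 and 1058 in GFP RNAi. The differences of CG33181, CG10362 and Rph were between 0.30 and 0.47, and none passed (limma adjusted p from 0.283 to 0.551).

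These 4 X chromosome genes, with Prx2540-2 and the mucin-related gene Mur82C, were the 6 features whose HP1a RNAi libraries differed by more than 0.4 on the log2 scale, in each case with replicate 2 higher. No shared feature differed by that much between the dKDM4A-labelled libraries, and Pxn alone did between the GFP libraries. The median size of the difference between replicates was 0.099 in HP1a RNAi, 0.041 in the dKDM4A-labelled libraries and 0.10 in GFP RNAi. Among the 6 higher shared genes of the X chromosome, replicate 2 minus replicate 1 of HP1a RNAi had a median of 0.65 (range -0.18 to 1.07), against -0.04 (range -0.38 to 0.44) in the 29 other higher features. Over the whole HP1a table the same medians were 0.10 for 50 higher features on the X chromosome and 0.03 for 296 elsewhere. The gap was thus smaller over the table than among the shared features. No test was made of it.

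**Figure D4:**
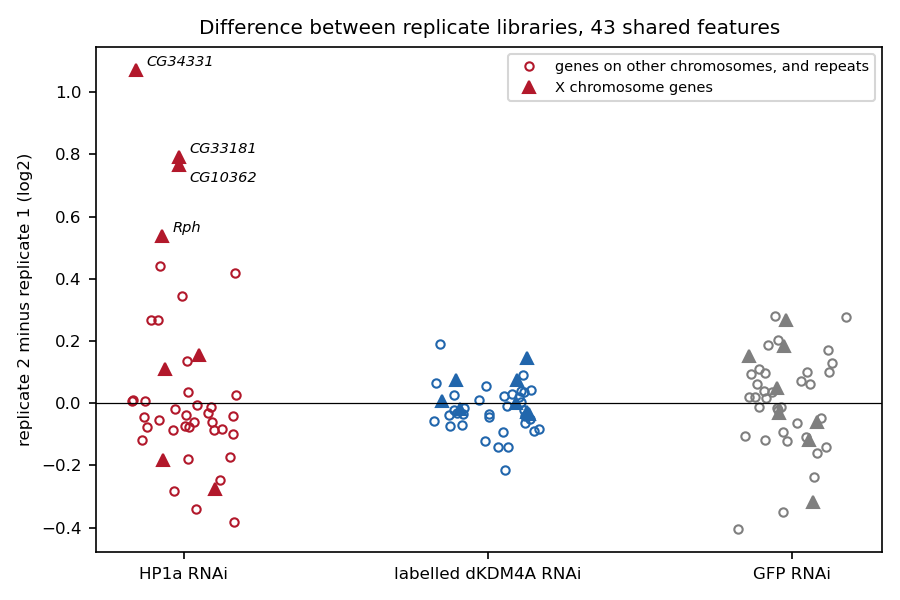
The y axis is replicate 2 minus replicate 1 in log2(normalized count + 1) for each shared feature, with triangles for X chromosome genes and circles for all others. In HP1a RNAi CG34331, CG33181, CG10362 and Rph lie between 0.54 and 1.07, while the dKDM4A-labelled libraries stay within 0.215 of 0.

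The shared genes lay on the large chromosomes. There were 13 on 3R, 11 on 2R, 8 on X, 7 on 3L and 2 on 2L. Chromosome 2L held 4.88% of the shared genes, against 19.8% of the genes of the HP1a table and 17.0% of those of the dKDM4A table. Chromosome 4, a small chromosome rich in heterochromatin, held none of the shared genes, against 16 genes of the HP1a table and 1 of the dKDM4A table. These counts are a description, and no test was made. Besides Prx2540-2 and CG11825, r and Sep4, a septin gene, were the only shared genes within 20 kb of each other, 15.5 kb apart with 4 coding genes between them. Sep4 had a difference between treatments of -0.07 (95% interval -0.29 to 0.15).

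In the table of the dKDM4A-labelled libraries the shared features had a median absolute change of 0.51, against 0.41 in the 47 features of that table alone. In the HP1a table the shared features had 0.64, against 0.61 in the other 492. Nothing is read from these sizes, because shared features had to pass in both treatments against the same GFP libraries. Absolute changes of at least 1 were held by 10 shared features in HP1a RNAi and 2 in the dKDM4A-labelled libraries, namely Pxn and CG5697. In HP1a RNAi the table's other features reached 5.79. Some lists had no shared gene. Of 16 piRNA pathway genes, 3 were higher and 1 lower in HP1a RNAi, and piwi was lower in the dKDM4A-labelled libraries. Of 15 heterochromatin protein genes, 1 was higher and 2 were lower in HP1a RNAi, among them its target, and Kdm4A was higher in the dKDM4A-labelled libraries. In the TGF-beta list of 11, mav was lower in HP1a RNAi and daw higher in the dKDM4A-labelled libraries. In the DNA repair list of 11, mus308 and p53 were higher in HP1a RNAi and Rrp1 was lower in the dKDM4A-labelled libraries.

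The genes not yet described were CG2915, CG2017, CG10365, CG14767 and RhoGAP92B. All were higher, with changes between 0.38 and 0.48 in HP1a RNAi and between 0.31 and 0.46 in the dKDM4A-labelled libraries. Their differences ran from -0.03 to 0.11 and none passed (limma adjusted p from 0.226 to 0.916). The exons of 18 of the 41 shared genes overlap a gene on the opposite strand. The sources used here do not state whether counting used strand, so the values of those genes are uncertain.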

How the data were processed

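The members, lists, naming rule and tests below were chosen with earlier results of these data known. RNA of 6 libraries in 3 groups was sequenced, and TopHat, Bowtie and DESeq2 are the tools in the submitters' processing notes, which give no version, role or genome build. Per the file headers, the authors deposited normalized counts per feature (signal) for each library; the values show 1 scaling factor per library and table. Log2 fold changes, the test score and p-values, raw and adjusted, are also the authors', per the file headers, and were used only to describe the selection. Normalized values in each column were whole multiples of 1 read (100% of values under 20000 within 0.1 reads). For all 43 features these recovered GFP reads matched between the tables. The step rested on 499 to 504 such values per library in the HP1a table and 84 to 86 in the dKDM4A table. No count test was run. The numbers of tested features, 8287 and 7533, follow from the deposited p-values and their adjusted values. A row without values in each table (1 per table) was left out.

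From these values log2(normalized count + 1) was centred on the GFP mean of the same table, and the treatments were compared by limma 3.58.1 (R 4.3.3) on the 4 RNAi libraries, with Benjamini-Hochberg adjustment over 43 features and a threshold of 0.05. A minimum mean of 1 removed 0 features. Fold values are ratios of mean normalized counts (n = 2 each). The script was tested on simulated counts with the same spread setting in every feature and treatment. The larger spread of HP1a RNAi was not simulated. The rule for naming took the called features, the 10 with the largest smaller change, all lower ones, the 5 largest and 5 smallest differences and the members of 16 lists, 27 features in all; the others were added with their values seen. Python 3.11.15, numpy 2.4.6, pandas 2.3.3 and matplotlib 3.10.9 were used. No sequence of these features is printed.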

Additional observations from a re-analysis of the deposited data

How the results depend on the processing

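Of the 27 features named by rule, the difference between treatments kept its sign in every setting other than leaving a library out. Of 243 such values, 230 also kept their side of the threshold. These settings left the difference the same or nearly so, so its sign was largely fixed in advance and is no support. All 43 features were tested without a filter and with a minimum mean of 100, and the shared GFP libraries nearly cancel in the difference. The number of features called, 6, could thus hardly change at these filters, on a common scale or without either GFP library, and was 6. It was also 6 at pseudocounts of 0.1 and 5 and when centred on the median. It was 9 with all 6 libraries in the fit, 1 at an adjusted p below 0.01, and between 0 and 21 with a library left out. Blocking on the replicate number left 0 features called by limma (lowest adjusted p 0.0697, 9 at an unadjusted p below 0.05), and 1 residual degree of freedom fewer was left. The numbers are not known to pair the libraries: deviations of same-numbered libraries correlated at 0.23 (HP1a and dKDM4A), 0.36 (HP1a and GFP) and 0.24 (dKDM4A and GFP) over 43 features that share libraries. Leaving out single libraries gave ranges across 0 for HETA (-0.033 to 0.049), FeCH (-0.059 to 0.00089), Cyp6a14 (-0.049 to 0.22), veil (-0.30 to 0.078), AdamTS-A (-0.13 to 0.013) and TAHRE (-0.056 to 0.13); none of these was called with all libraries. The median change over the 43, 0.54 in HP1a RNAi and 0.46 in the dKDM4A-labelled libraries, was 0.54 and 0.46 at a pseudocount of 5 and ranged from 0.48 to 0.56 and from 0.42 to 0.48 with a library left out. Features further from GFP in HP1a RNAi numbered 29 to 30, and matching by symbol gave 41 shared genes, since repeats have none. Count tests (edgeR, DESeq2) were not run, because the deposited values are normalized and reads were only recovered from them. Total depth is unknown, and 2 libraries per group limit every interval.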

Other observations

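Some neighbours of the shared genes were listed in 1 of the tables, mostly that of HP1a RNAi, and they are given as values. The toll pathway protease gene modSP lies 12.7 kb from Fas1 and was 3.37 higher on the log2 scale in HP1a RNAi. Ten-m, a teneurin gene, and Srpk79D, a kinase gene, lie 0.233 and 4.33 kb from Aats-ile and were 0.60 and 1.25 higher. Nrg, which encodes the adhesion molecule neuroglian, lies 0.343 kb from CG33181 and was 0.48 higher. CG1827, 2.92 kb from Updo, was 0.87 lower in HP1a RNAi (a log2 change of -0.87), while Updo was higher. Dad, an inhibitor of BMP signalling 9.84 kb from kuk, had a change of -0.40, and Reg-2, 1.16 kb from CG13893, one of -0.25. Cyp6a13, 3.30 kb from Cyp6a14, was 0.37 higher in the dKDM4A-labelled libraries and was not in the HP1a table. These genes were named after their values were seen, and how often neighbours of other listed genes are listed was not examined.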
